A study of Mus musculus with 6 samples.

Results

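The 36 mitotic G2/M genes encode proteins that carry a cell from late G2 through the end of cytokinesis, from the kinases that start mitosis to the motors of the spindle and the proteins that pinch the daughter cells apart. They were taken by symbol from a list of known mitotic genes, and all 36 were found among the 18112 genes of the expression table. Their mRNA was measured by sequencing of poly-A RNA from primary vascular smooth muscle cells, isolated from the aorta of C57BL/6 mice. The question was what loss of the lysine methyltransferase *Smyd2* does to gene expression in these cells. Control cells, in 3 libraries named Flox 1, Flox 2 and Flox 3, came from Smyd2 fl/fl mice, in which both *Smyd2* alleles carry loxP sites. Knockout cells, in 3 libraries named KO 1, KO 2 and KO 3, came from Smyd2 SMC-/- mice, which carry the same floxed alleles and a *Tagln*-Cre transgene (also called SM22α-Cre) whose smooth muscle promoter drives the removal of exon 2. The controls were floxed littermates, so the loss of *Smyd2* and the presence of Cre cannot be told apart. The labels give cells at passage 6 in medium with 10% fetal bovine serum, while the methods of the study give an earlier passage and overnight starvation, and the files do not settle which holds. Nor do the labels say that the replicates are separate cultures or animals, so some of them may be technical. Replicate 1 stood apart from replicates 2 and 3 in both groups, as given below.

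Cells entering mitosis switch on a shared group of genes late in the cell cycle, and their mRNA is scarce in resting cells. In G1 and in resting cells the DREAM complex keeps these genes off through a promoter element called the cell cycle homology region, and in G2 the complex of B-Myb and MuvB, together with FOXM1, turns them on, often with NF-Y bound to CCAAT boxes. Smooth muscle cells of a healthy adult aorta seldom divide, but they re-enter the cycle in serum or after injury of the vessel wall, and the level of these mRNAs follows the share of cells in G2 and mitosis.

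Levels are given in FPKM, fragments of a gene scaled to the length of its transcript and to all mapped fragments of the library. Members were present in every library, with means over the 6 libraries from 2.48 to 46.3 FPKM and a median of 12.9 FPKM, against 11.0 FPKM for the 12565 tested genes, whose mean had to reach 0.5 FPKM. All 36 members were among them. The number of fragments in each library, read off the spacing of the lowest FPKM values, was about 18600000, 19950000 and 19750000 in Flox 1, 2 and 3 and 17050000, 19500000 and 19250000 in KO 1, 2 and 3. These estimates are approximate, since only 70.0% to 74.4% of the low values lay within 0.15 of a whole fragment, and errors taken from them cover counting alone. At that depth *Cdc25c* rested on the fewest fragments of any member, about 55 in KO 3 with a counting error of 13.5%, and every other member had at least 102 in each library.

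*Smyd2* itself (NCBI Gene 226830) measured 7.87, 3.10 and 3.0 FPKM in Flox 1, 2 and 3 and 1.67, 0.40 and 0.80 FPKM in KO 1, 2 and 3. The groups did not overlap, Flox 1 was the highest and KO 2 the lowest, and reads from the remaining exons would still count in the knockout. The log2 fold change of knockout against control was −1.48 (SE 0.39), with an adjusted p of 0.105 in limma and 0.0189 once same-numbered libraries were treated as a block. Over all alternatives the adjusted p ran from 0.00126 to 0.305. An exact two-sided permutation test of the FPKM gave p = 0.1, the smallest that 3 libraries against 3 allow.

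Across the 36 mitotic genes the knockout had the lower estimate for 35, all but *Anln*, also after rescaling to TPM and after quantile normalization. The median log2 fold change of the members was −0.41, beside −0.018 for all tested genes, of which 52.0% had a lower estimate. Single members ran from −1.04 for *Incenp* to 0.44 for *Anln*. None passed the test: at the threshold of 0.05 on the adjusted p, limma called 0 of 36 members lower and 0 higher, where it called 152 of all tested genes lower (1.21%) and 154 higher (1.23%). An unadjusted p under 0.05 was found for 4 members, *Incenp*, *Cdk1*, *Kif11* and *Aurkb*, which is 11.1% against 20.3% of all tested genes. In bulk RNA, fewer dividing cells and less mitotic mRNA per dividing cell cannot be told apart.

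Same-numbered libraries of the groups deviated together across genes, with correlations of 0.615, 0.460 and 0.528 for replicates 1, 2 and 3 over 12565 genes, which are not independent of one another. Flox 2 with KO 3 gave 0.461 and Flox 3 with KO 2 gave 0.439, so replicates 2 and 3 were not told apart by this measure, while replicate 1 stood apart from both. With the replicate number as a block, *Incenp*, *Kif11* and *Cdk1* were called lower, 3 of 36 or 8.33% against a background of 5.72%, and 0 members were called higher against 4.72%. At an unadjusted p under 0.05 that fit held 13 members (36.1%, against 32.1% of all tested genes). A block for replicate 1 against the other two called the same 3 members lower and 0 higher, where it called 11.1% of all tested genes lower and 9.17% higher. All knockout libraries lay below all control libraries for 6 members, *Cdk1*, *Aurkb*, *Birc5*, *Incenp*, *Kif11* and *Top2a*, or 16.7% beside 15.0% of all tested genes, and above them for 0 members beside 13.1%. The shares of members that were lower by these measures were near the background of all genes, and are read as no result about the list. What 35 of the 36 members had in common was the sign of mostly small differences, for which no test was made.

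The size of that shared difference rested mostly on KO 3 and Flox 1. Without KO 3 the median of the members was −0.10 and without Flox 1 it was −0.19, whereas without KO 1 it was −0.64. Leaving out Flox 2, Flox 3 or KO 2 gave medians of −0.53, −0.52 and −0.45. Members called numbered 0 in each of these fits by limma, with between 1 and 9 at an unadjusted p under 0.05, beside 12.9% to 26.0% of all tested genes. The 9 of 36 came without KO 1, the fit with the 26.0%. Over all tested genes the calls came to 277 without Flox 1, 34 without Flox 2, 36 without Flox 3, 686 without KO 1, 55 without KO 2 and 39 without KO 3, against 306 with all libraries. Rescaling to TPM moved the median of all tested genes from −0.018 to 0.10 and the share of calls that were higher from 50.3% to 71.4%, with 99 lower and 247 higher. Relative to all tested genes the median of the members was −0.39 before and −0.40 after rescaling.

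**Figure D1:**
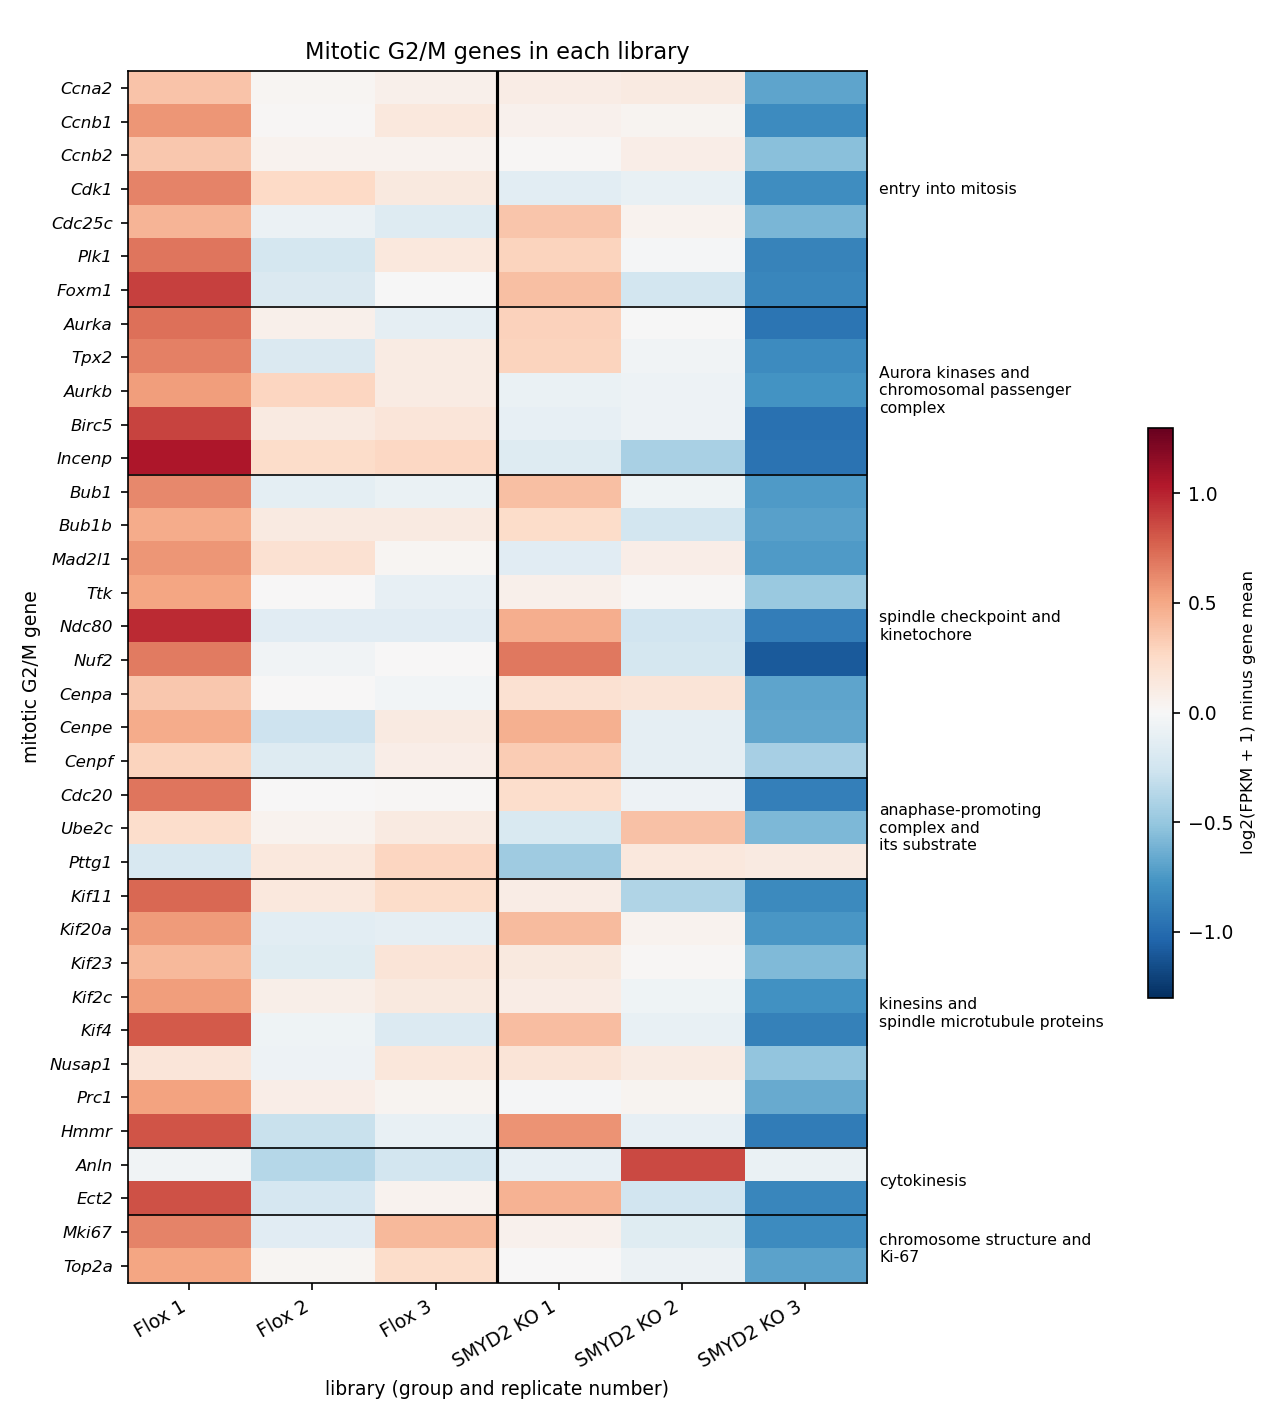
Each mitotic gene in each library, as the log2 of FPKM plus 1 minus the mean of that gene over the 6 libraries, with genes in order of role. Flox 1 is the highest library for 30 of the 36 genes and KO 3 the lowest for 34.

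Taken library by library, the median member stood at 19.7, 12.8 and 12.8 FPKM in Flox 1, 2 and 3 and at 14.8, 12.2 and 7.54 FPKM in KO 1, 2 and 3. Flox 1 was thus high and KO 3 low, and the other libraries lay between, with both groups overlapping. Flox 1 held the highest value of 30 members (83.3%, beside 27.0% of all tested genes), and KO 3 held the lowest value of 34 (94.4%, beside 17.4%). The exceptions at the low end were *Pttg1*, lowest in KO 1, and *Anln*, lowest in Flox 2. The highest value lay in KO 1 for *Nuf2*, *Cenpf* and *Nusap1*, in KO 2 for *Ube2c* and *Anln*, and in Flox 3 for *Pttg1*. The estimated depth of KO 3 lay within the range of the other libraries.

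By pair of same-numbered libraries, the median log2 difference of the members was −0.40 in pair 1, −0.0041 in pair 2 and −0.80 in pair 3, against 0.054, −0.077 and −0.037 for all tested genes. Members lower in the knockout numbered 33 in pair 1, 18 in pair 2 and 35 in pair 3, where 45.3%, 57.9% and 54.3% of all tested genes were lower. Pair 2 therefore split the list evenly. In all 3 pairs together 17 members were lower (47.2%, beside 29.3% of all tested genes). A test of whether the difference in pair 1 departs from that in pairs 2 and 3, which assumes that the lone libraries of pair 1 vary like the others, called 0 members against 8.62% of all tested genes. The lowest adjusted p of a member was 0.462, and at an unadjusted p under 0.05 limma found 0 members and 3226 of all tested genes.

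**Figure D2:**
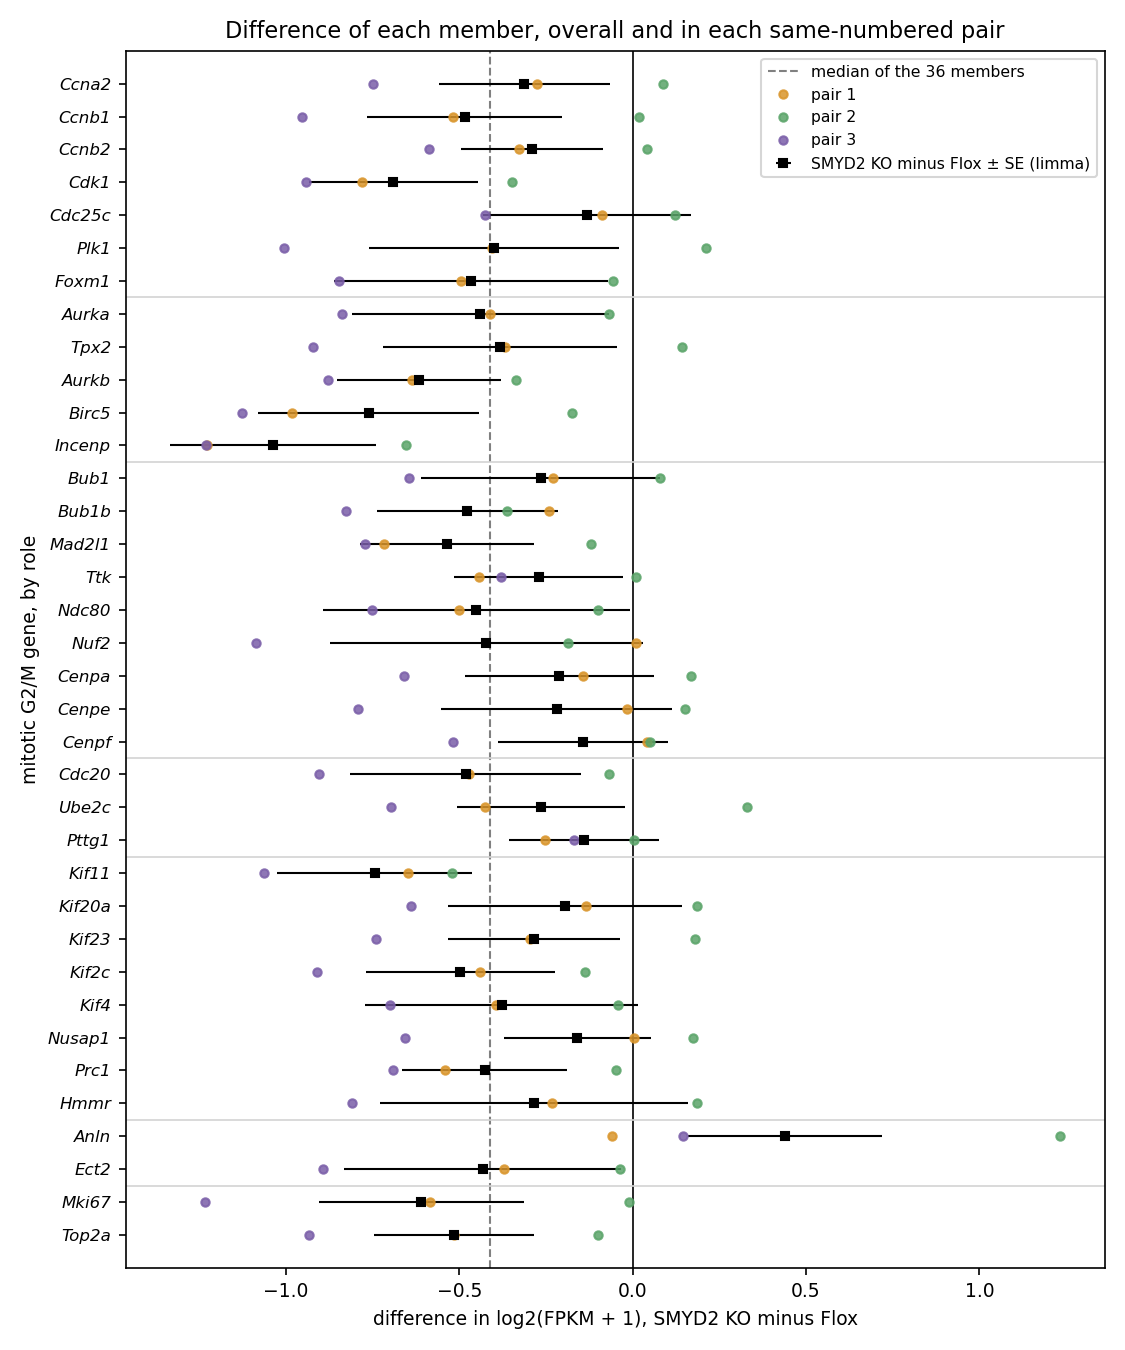
Log2 difference of knockout from control for each mitotic gene in each same-numbered pair of libraries and in the fit of all 6 libraries with its standard error, in order of role. Pair 3 lies lowest for most genes and pair 2 is centred near no difference, with *Anln* as the one gene above it in the fit.

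Several members carry the promoter elements named above. Of the 36, 29 had a promoter in the RefSeq table of GRCm38.p6 (absent were *Ccna2*, *Cdc25c*, *Foxm1*, *Tpx2*, *Aurkb*, *Incenp* and *Kif20a*), and the 250 bases before each start were searched on both strands for CCAAT and for TTTGAA, the core of the cell cycle homology region. A gene with several starts was counted when any of its windows held the letters. CCAAT was found in 21 members (72.4%, beside 37.5% of all 27025 genes of that table and 41.2% of the tested genes in it). TTTGAA was found in 10 members (34.5%, beside 18.3% and 12.8%). Both were found in 9 members (31.0%, beside 6.45% and 4.97%), namely *Ccnb2*, *Cdk1*, *Cdc20*, *Ube2c*, *Kif11*, *Prc1*, *Ect2*, *Mki67* and *Top2a*. The other G2/M genes had both in 29.8% and the S-phase genes in 7.14%. The median log2 fold change was −0.48 for the 9 members with both and −0.33 for the other 20 with a promoter, a difference that was not tested. The promoters of the most abundant members with both elements are shown so that the elements can be seen in place: *Ube2c* at chr2:164769679-164769928 on the plus strand, *Top2a* at chr11:99024190-99024439 on the minus strand, *Cdk1* at chr10:69352913-69353162 on the minus strand and *Prc1* at chr7:80294226-80294475 on the plus strand. Each is written along the strand of its gene and ends at the base before the start, with capitals for CCAAT, for TTTGAA and for their reverse complements ATTGG and TTCAAA.
Ube2c: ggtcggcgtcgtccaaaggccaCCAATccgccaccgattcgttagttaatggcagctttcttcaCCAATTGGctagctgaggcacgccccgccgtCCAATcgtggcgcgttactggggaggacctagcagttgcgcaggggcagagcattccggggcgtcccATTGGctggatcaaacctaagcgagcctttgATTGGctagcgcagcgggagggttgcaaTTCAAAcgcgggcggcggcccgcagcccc
Top2a: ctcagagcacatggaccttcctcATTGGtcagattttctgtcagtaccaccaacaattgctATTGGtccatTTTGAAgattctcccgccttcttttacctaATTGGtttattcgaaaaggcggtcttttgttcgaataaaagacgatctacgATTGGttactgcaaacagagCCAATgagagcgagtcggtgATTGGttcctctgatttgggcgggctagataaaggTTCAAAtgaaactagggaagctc
Cdk1: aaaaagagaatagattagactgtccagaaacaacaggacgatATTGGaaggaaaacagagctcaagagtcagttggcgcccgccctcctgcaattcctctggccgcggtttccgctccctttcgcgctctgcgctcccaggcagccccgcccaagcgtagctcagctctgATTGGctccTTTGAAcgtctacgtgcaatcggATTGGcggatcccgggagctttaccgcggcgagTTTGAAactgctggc
Prc1: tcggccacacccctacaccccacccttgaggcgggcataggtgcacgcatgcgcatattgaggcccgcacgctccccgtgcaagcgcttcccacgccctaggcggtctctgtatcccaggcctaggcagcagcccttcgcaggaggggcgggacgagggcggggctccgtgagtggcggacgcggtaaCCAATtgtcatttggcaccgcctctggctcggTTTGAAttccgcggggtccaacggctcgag
*Prc1* has 2 starts in the table, and in the window shown, the one with both elements, a single CCAAT lies 62 to 58 bases before the start and a single TTTGAA 30 to 25 bases before it. In *Ube2c* the TTTGAA is on the opposite strand, 29 to 24 bases before the start, and a CCAAT on each strand overlap within one CCAATTGG. *Cdk1* holds TTTGAA at 71 to 66 and again at 15 to 10 bases before the start, and *Top2a* holds it at 179 to 174 and, on the opposite strand, at 23 to 18. A match of letters describes the window and shows no binding.

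Among the 7 genes of entry into mitosis, the median log2 fold change was −0.40, with pair medians of −0.41, 0.043 and −0.85, and every one of the 7 was highest in Flox 1 and lowest in KO 3. *Cdk1* (NCBI Gene 12534), the kinase that cyclins A and B activate to start mitosis, measured 28.2, 21.3 and 19.4 FPKM in the controls and 16.0, 16.5 and 9.63 FPKM in the knockouts, in the order of replicates 1, 2 and 3. Its groups did not overlap, with KO 2 the knockout library nearest to the controls. The mean was 23.0 ± 4.64 FPKM in the control and 14.0 ± 3.83 FPKM in the knockout (SD, n = 3). Its log2 fold change was −0.69 (SE 0.24, adjusted p = 0.186 in limma, 0.0488 with the replicate block, 0.0466 to 0.552 over all alternatives, and not called at 0.0916 in replicates 2 and 3 alone), and *Cdk1* was lower in 3 of 3 pairs, with differences of −0.78, −0.35 and −0.94. *Foxm1*, the transcription factor that drives many of the other members in G2 and the most abundant of these 7, measured 33.1, 15.2 and 17.4 FPKM in the controls and 23.2, 14.6 and 9.24 FPKM in the knockouts. KO 1 exceeded Flox 2 and Flox 3, so the groups overlapped. *Foxm1* had a log2 fold change of −0.47 (SE 0.40, adjusted p = 0.576), and pair 2 differed by only −0.057. *Cdc25c*, the phosphatase that removes the inhibitory phosphates from CDK1, measured 4.23, 2.64 and 2.41 FPKM in the controls and 3.92, 2.96 and 1.54 FPKM in the knockouts. It had the smallest difference of the 7, with overlapping groups, a log2 fold change of −0.13 (SE 0.30, adjusted p = 0.861) and the opposite sign without KO 3 (0.14) or without Flox 1 (0.059). The mitotic cyclins *Ccna2*, *Ccnb1* and *Ccnb2* had log2 fold changes of −0.31, −0.48 and −0.29, and the polo-like kinase *Plk1*, which promotes mitotic entry and spindle assembly, had −0.40.

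The 5 genes of the Aurora kinases and the chromosomal passenger complex had the lowest median of the role groups, −0.62, with pair medians of −0.64, −0.17 and −0.92. *Incenp* (NCBI Gene 16319), the scaffold that holds Aurora B, survivin and borealin at the inner centromere, measured 36.2, 20.1 and 20.6 FPKM in the controls and 14.9, 12.4 and 8.19 FPKM in the knockouts. The highest knockout library, KO 1, lay below the lowest control library, Flox 2, and Flox 1 stood well above both other controls. The mean was 25.6 ± 9.18 FPKM in the control and 11.8 ± 3.40 FPKM in the knockout (SD, n = 3). At −1.04 (SE 0.30) it had the largest difference of the 36 members and was lower in 3 of 3 pairs, with differences of −1.23, −0.65 and −1.23. The adjusted p was 0.125 in limma and 0.0274 with the replicate block, and it ran from 0.00817 to 0.352 over all alternatives. *Tpx2*, which loads and activates Aurora A on spindle microtubules and was the most abundant of the 5, measured 38.3, 20.8 and 25.8 FPKM in the controls and 29.4, 23.1 and 13.1 FPKM in the knockouts. Its groups overlapped and pair 2 was higher in the knockout by 0.14, with a log2 fold change of −0.38 (SE 0.34, adjusted p = 0.593). *Aurkb*, the kinase of the passenger complex, and *Birc5* (survivin), which targets the complex to centromeres, are named because their groups did not overlap, a choice made after their values were seen. *Aurkb* measured 16.0, 13.1 and 11.5 FPKM in the controls and 9.92, 10.1 and 5.80 FPKM in the knockouts. *Birc5* measured 38.3, 22.2 and 22.9 FPKM in the controls and 18.9, 19.6 and 9.93 FPKM in the knockouts. For both, the gap between the lowest control and the highest knockout library was small beside the spread among the controls. Their log2 fold changes were −0.62 for *Aurkb* (SE 0.24, adjusted p = 0.215) and −0.76 for *Birc5* (SE 0.32, adjusted p = 0.246). The centrosomal kinase *Aurka* had −0.44, with overlapping groups.

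The 9 genes of the spindle checkpoint and the kinetochore, which hold back anaphase until chromosomes are attached to the spindle, had a median of −0.27 and pair medians of −0.23, 0.011 and −0.75. *Mad2l1*, the checkpoint protein that binds and inhibits CDC20, was the most abundant of them and measured 34.4, 26.4 and 23.3 FPKM in the controls and 20.6, 24.2 and 13.3 FPKM in the knockouts. KO 2 exceeded Flox 3, so the groups overlapped, while KO 1 and KO 3 lay below every control. It also had the lowest log2 fold change of the 9, −0.54 (SE 0.25, adjusted p = 0.294). *Cenpf*, a large protein of the outer kinetochore, measured 3.17, 2.05 and 2.64 FPKM in the controls and 3.29, 2.16 and 1.54 FPKM in the knockouts. KO 1 was its highest library and KO 3 its lowest, and its log2 fold change of −0.14 (SE 0.24, adjusted p = 0.804) took the opposite sign, 0.036, without KO 3. The checkpoint kinases *Bub1* and *Ttk* had −0.27 and −0.27, and *Bub1b*, which encodes the checkpoint protein BUBR1, had −0.48. *Bub1b* was called lower in replicates 2 and 3 alone (adjusted p = 0.0305, against 0.366 with all libraries and a range up to 0.740 over the alternatives). That fit called 17.2% of all tested genes lower. *Ndc80* and *Nuf2*, partners in the complex that grips microtubules, had −0.45 and −0.42, and the centromeric histone *Cenpa* and the kinetochore motor *Cenpe* had −0.21 and −0.22. *Bub1*, *Nuf2*, *Cenpa* and *Cenpe* took the opposite sign without KO 3, at 0.037, 0.016, 0.081 and 0.064.

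Destruction of cyclin B and securin by the anaphase-promoting complex ends metaphase, and the 3 members of that step had a median of −0.26. *Ube2c*, the ubiquitin-conjugating enzyme of the complex and the most abundant of all 36 members, measured 53.4, 46.9 and 49.2 FPKM in the controls and 39.5, 59.1 and 29.9 FPKM in the knockouts. KO 2 was its highest library and KO 3 its lowest, so the knockouts spanned the whole control range. It had a log2 fold change of −0.26 (SE 0.24, adjusted p = 0.610), and the 3 pairs differed by −0.43, 0.33 and −0.70. *Cdc20*, the coactivator that the checkpoint holds in check, measured 26.7, 16.1 and 16.3 FPKM in the controls and 18.9, 15.3 and 8.22 FPKM in the knockouts. Its pair 2 was nearly level at −0.069, and its log2 fold change was −0.48 (SE 0.33, adjusted p = 0.485). *Pttg1*, which encodes securin, measured 27.1, 34.7 and 38.5 FPKM in the controls and 22.6, 34.8 and 34.1 FPKM in the knockouts. It ran against the usual order of libraries, lowest in KO 1 and highest in Flox 3, with replicate 1 low in both groups. Its log2 fold change of −0.14 (SE 0.22, adjusted p = 0.781) took the opposite sign, 0.057, without KO 1.

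Kinesins and other proteins of spindle microtubules made up 8 members, with a median of −0.33 and pair medians of −0.34, 0.066 and −0.72. *Kif11* (NCBI Gene 16551), the motor that pushes the spindle poles apart, measured 18.3, 11.6 and 12.5 FPKM in the controls and 11.3, 7.77 and 5.46 FPKM in the knockouts. KO 1 came within a small gap of the lowest control, Flox 2, and the groups did not overlap. The mean was 14.1 ± 3.62 FPKM in the control and 8.18 ± 2.94 FPKM in the knockout (SD, n = 3). With limma its log2 fold change was −0.74 (SE 0.28, adjusted p = 0.210, 0.0424 with the replicate block, 0.00932 to 0.595 over all alternatives), and *Kif11* was lower in 3 of 3 pairs, with differences of −0.65, −0.52 and −1.06. *Kif20a*, a motor of the central spindle needed for cytokinesis and the most abundant of the 8, measured 35.3, 21.6 and 21.8 FPKM in the controls and 32.0, 24.7 and 13.7 FPKM in the knockouts. Apart from the low KO 3, its groups overlapped fully. A log2 fold change of −0.20 was estimated (SE 0.34, adjusted p = 0.806), and the sign was opposite without KO 3 (0.13) or without Flox 1 (0.030). *Nusap1*, which bundles microtubules near chromosomes, measured 12.5, 10.6 and 12.4 FPKM in the controls and 12.6, 12.1 and 7.49 FPKM in the knockouts. Only KO 3 lay outside a narrow range of levels, and the log2 fold change was −0.16 (SE 0.21, adjusted p = 0.737), or 0.057 without KO 3. Among the rest, *Kif23*, a motor of the centralspindlin complex, had −0.29, the microtubule depolymerase *Kif2c* had −0.50 and the chromosome-bound motor *Kif4* had −0.38. *Prc1*, which cross-links the microtubules of the midzone, had −0.43, and *Hmmr*, a spindle protein also known as a hyaluronan receptor, had −0.29, or 0.10 without KO 3 and 0.053 without Flox 1.

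The cytokinesis genes, 2 in number, differed from each other. *Anln* (NCBI Gene 68743) encodes anillin, which ties actin, myosin and septins together at the contractile ring, and measured 26.7, 21.1 and 23.4 FPKM in the controls and 25.6, 51.1 and 26.0 FPKM in the knockouts. KO 2 stood far above the other 5 libraries, which lay close together. *Anln* thus had the highest log2 fold change of the 36, 0.44 (SE 0.28, adjusted p = 0.445), with pair differences of −0.061, 1.23 and 0.14, and without KO 2 it was 0.12. *Ect2*, the exchange factor that activates RhoA at the cell equator, measured 13.3, 5.95 and 7.33 FPKM in the controls and 10.1, 5.78 and 3.49 FPKM in the knockouts. Both replicate 1 libraries were high, the groups overlapped, and the log2 fold change was −0.43 (SE 0.40, adjusted p = 0.612).

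*Mki67* encodes Ki-67, the coat of mitotic chromosomes that is stained to mark proliferating cells, and *Top2a* encodes the topoisomerase that untangles sister chromatids. *Mki67* measured 26.4, 14.8 and 22.4 FPKM in the controls and 17.3, 14.7 and 8.97 FPKM in the knockouts. KO 1 exceeded Flox 2, so the groups overlapped, and pair 2 was level at −0.011 while pair 3 differed by −1.23. *Top2a* measured 34.3, 24.1 and 28.0 FPKM in the controls and 23.7, 22.4 and 14.2 FPKM in the knockouts. Its groups did not overlap, by a narrow margin between Flox 2 and KO 1. Log2 fold changes were −0.61 for *Mki67* (SE 0.30, adjusted p = 0.307) and −0.52 for *Top2a* (SE 0.23, adjusted p = 0.275).

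**Figure D3:**
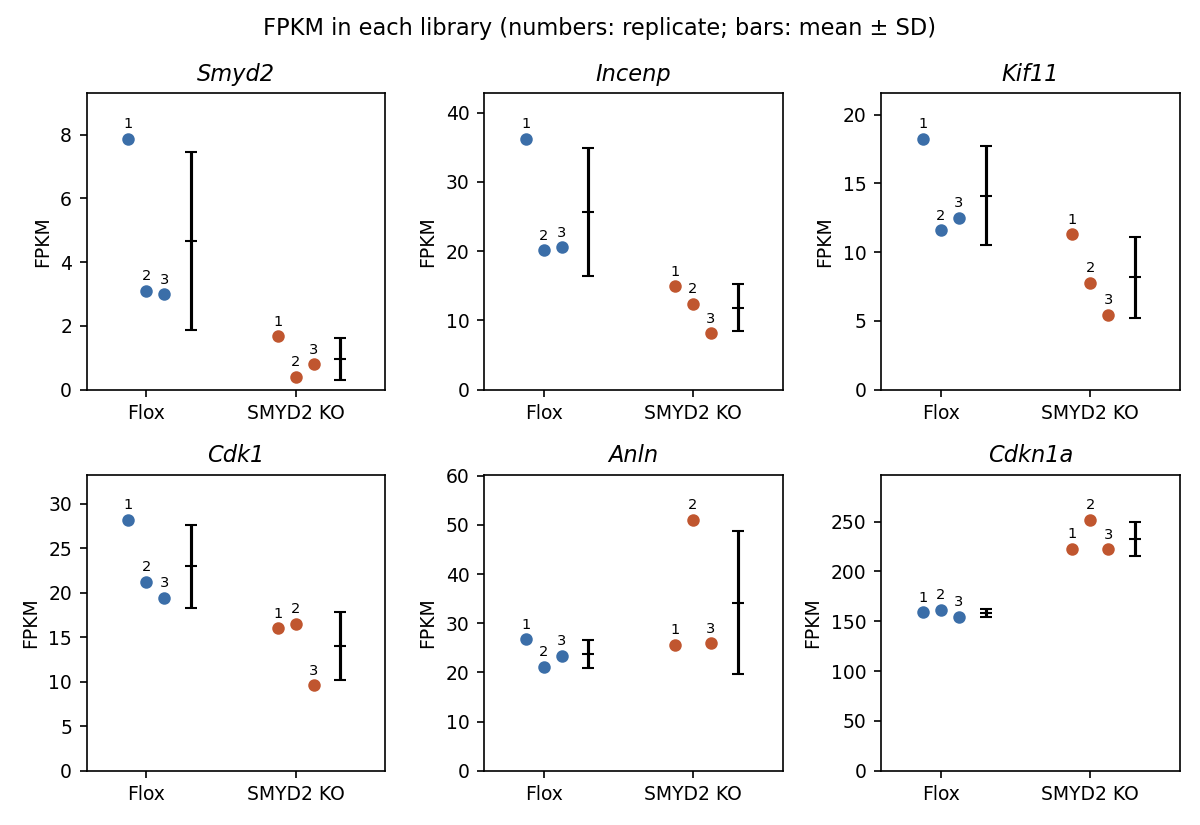
FPKM in each library for single genes, with controls and knockouts side by side, replicate numbers above the points and bars for the mean and SD of each group (n = 3). *Smyd2*, *Incenp*, *Kif11* and *Cdk1* have no knockout library above a control library, *Anln* is high in KO 2, and *Cdkn1a*, a regulator, is higher in every knockout library.

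The members called with the replicate block lie on chromosomes whose genes were lower as a whole. *Incenp* and *Kif11* lie on chromosome 19 and *Cdk1* on chromosome 10, the chromosomes with the lowest and second lowest median log2 fold change of the 20 examined, −0.42 over 426 tested genes and −0.36 over 579. On chromosome 19 the pairs gave medians of −0.35, −0.48 and −0.43, and on chromosome 10 they gave −0.28, −0.42 and −0.39. The highest median was 0.28, on chromosome 5, which carries *Cenpa*. A chromosome was known for 11683 of the 12565 tested genes, and the shares of this step are over all 12565. With the median of its chromosome removed from each gene that had one, in each library, the log2 fold change was −0.62 for *Incenp*, −0.33 for *Kif11* and −0.32 for *Cdk1*. The step was chosen after the data were seen. Limma then called 0 members with 0 at an unadjusted p under 0.05, against 16.2% of all tested genes. With the replicate block as well it called 0 members with 6 at that level (16.7%, against 27.0%). The blocked adjusted p became 0.0955 for *Incenp*, 0.225 for *Kif11* and 0.261 for *Cdk1*. The median of all members was −0.38 after this step, against −0.41 before it, and why the chromosomes differed was not tested.

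**Figure D4:**
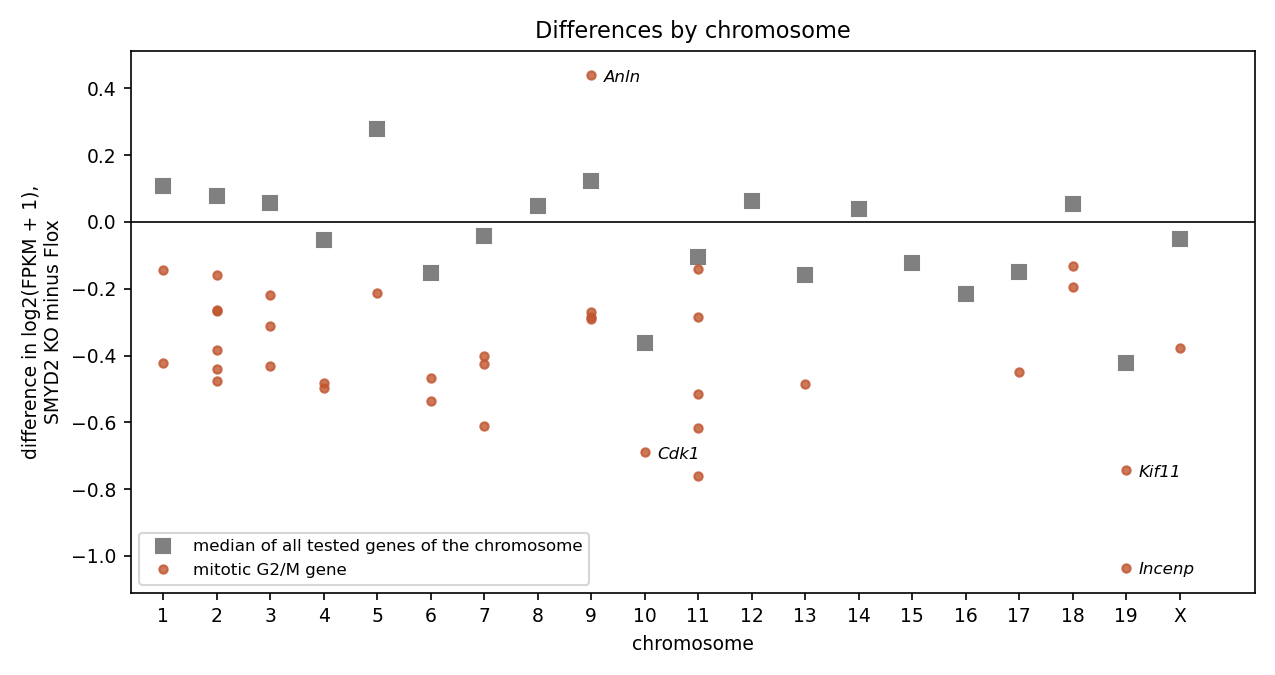
Median log2 fold change of the tested genes on each chromosome, with the mitotic members on it as points. *Incenp* and *Kif11* on chromosome 19 and *Cdk1* on chromosome 10 lie on the chromosomes with the lowest medians.

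A wider list of 74 other G2/M genes was examined in the same way, of which 70 were in the table and 69 were tested (*Nek2* was too low). Their median log2 fold change was −0.29, with pair medians of −0.28, −0.054 and −0.57, and 61 of the 69 had a lower estimate in the knockout. This median was −0.088 without KO 3, −0.14 without Flox 1 and −0.48 without KO 1. Leaving out Flox 2, Flox 3 or KO 2 gave −0.40, −0.38 and −0.32. KO 3 held the lowest value of 61 and Flox 1 the highest value of 55, the same pattern of libraries as in the members. Limma called 0 of them, with 7 at an unadjusted p under 0.05 (10.1%, against 20.3% of all tested genes), and the replicate block called 3 lower (4.35%, against 5.72%), *Cenph* and, named after their values were seen, *Ncapd2* and *Fzr1*. With chromosome medians removed as well, none of the 3 was called. The log2 fold change of *Cenph* went from −0.73 to −0.58 (blocked adjusted p = 0.0529) and that of *Ncapd2* from −0.73 to −0.60 (0.0860), while that of *Fzr1* went from −0.51 to −0.14 (0.462). *Cenph*, an inner kinetochore protein, had the lowest estimate and measured 10.7, 7.39 and 6.37 FPKM in the controls and 6.89, 3.96 and 3.03 FPKM in the knockouts. Its log2 fold change was −0.73 (SE 0.30, adjusted p = 0.237, 0.0359 with the block, 0.00691 to 0.558 over all alternatives), and KO 1 lay within the control range. *Psrc1*, a spindle protein that also responds to p53, had the highest estimate, with 39.3, 35.2 and 36.1 FPKM in the controls and 98.3, 55.1 and 47.4 FPKM in the knockouts. KO 1 was far above the rest, and every knockout library lay above every control library. *Psrc1* was the only gene of the list with that order (1.45%, against 13.1% of all tested genes). The log2 fold change was 0.77 (SE 0.27, adjusted p = 0.182, 0.0668 with the replicate block, 0.0126 to 0.380 over all alternatives). *Psrc1* was called higher with a block for replicate 1 (0.0274) and in replicates 2 and 3 alone (0.0126), as the only gene of the 69. These fits called 1152 (9.17%) and 1494 of the 12565 tested genes higher. Its estimate ran from 0.46 to 0.98 over the alternatives.

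For the 52 genes of DNA replication and S phase, the median log2 fold change was −0.45, close to that of the mitotic members, but the pairs were more alike, with medians of −0.53, −0.23 and −0.61. The members of the list with no overlap between groups, all lower in the knockout, numbered 27 (51.9%, against 16.7% of the mitotic genes and 15.0% of all tested genes). Limma called 1 of them lower, *Fen1*, with 23 at an unadjusted p under 0.05 (44.2%, against 20.3%), and the replicate block called 10 (19.2%, against 5.72% of all tested genes). With chromosome medians removed as well, the blocked fit called 1 S-phase gene lower (1.92%, against 2.29%), while the median of the list was −0.48. *Fen1*, the flap endonuclease that trims Okazaki fragments, measured 16.9, 12.7 and 12.1 FPKM in the controls and 6.43, 6.41 and 4.88 FPKM in the knockouts. Every knockout library lay well below every control library. It fell by 1.10 on the log2 scale (SE 0.18, adjusted p = 0.0387, 0.0184 with the block, 0.00185 to 0.167 over all alternatives), and no S-phase gene was called when Flox 1, Flox 2, Flox 3, KO 2 or KO 3 was left out, while 2 were called without KO 1. Like *Incenp* and *Kif11*, *Fen1* lies on chromosome 19, and with chromosome medians removed its difference was −0.68 and it was not called. It was not called either with no filter on low values or after rescaling to TPM. No difference between the lists was tested.

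**Figure D5:**
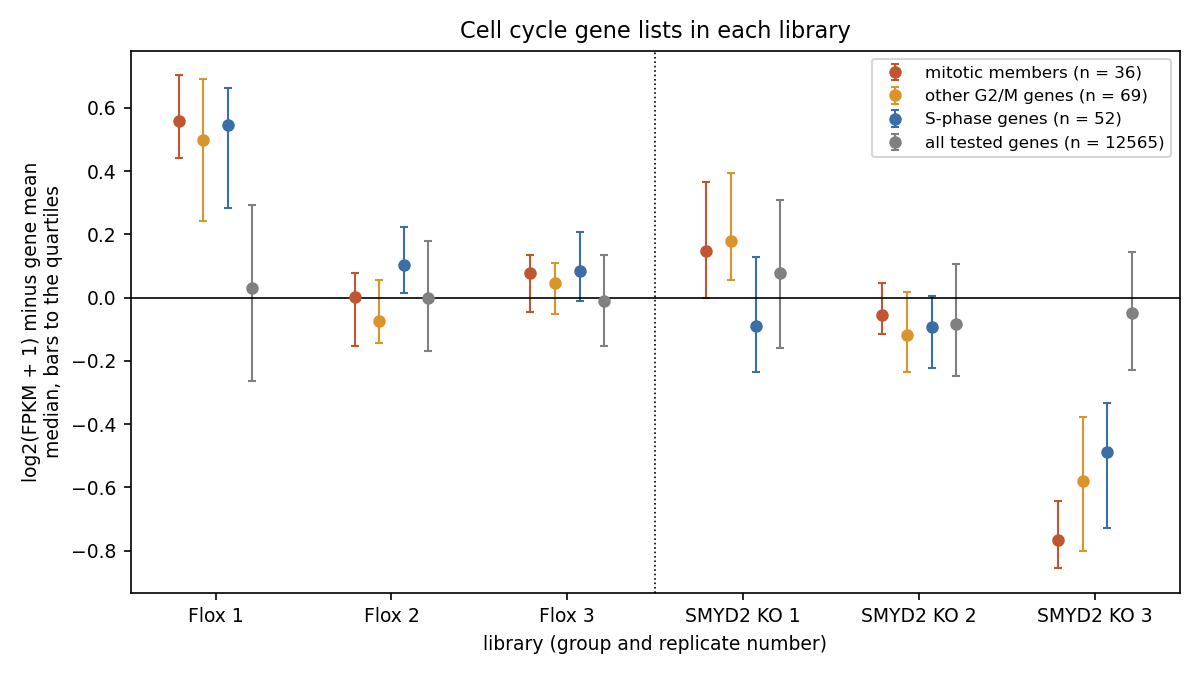
Median over each gene list, in each library, of the log2 of FPKM plus 1 minus the mean of the gene over the 6 libraries, with bars to the quartiles. The mitotic genes stand at 0.56 in Flox 1 and −0.77 in KO 3, and both other cell cycle lists are also high in Flox 1 and low in KO 3, while all tested genes stay near 0.

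Of the 21 regulators of the mitotic genes, among them the subunits of the DREAM and MuvB complexes, E2F and NF-Y factors and p53 with its target p21, limma called 0, with 4 at an unadjusted p under 0.05 (19.0%, against 20.3%). Their median log2 fold change was −0.14. All knockout libraries lay above all control libraries for 3 of them (14.3%, against 13.1% of all tested genes). They lay below for 2 (9.52%, against 15.0%). These shares were near or below the background and are read as no result about the list. *Mybl2*, which encodes the B-Myb that activates the mitotic genes with MuvB, measured 6.28, 3.11 and 3.02 FPKM in the controls and 2.89, 3.55 and 1.86 FPKM in the knockouts. Flox 1 was high and KO 3 low, as for the mitotic members, the groups overlapped, and the log2 fold change was −0.42 (SE 0.30, adjusted p = 0.504). The MuvB subunits differed among themselves, at −0.43 for *Lin9*, −0.054 for *Lin37*, −0.30 for *Rbbp4*, 0.51 for *Lin52* and 0.30 for *Lin54*. *Lin52* measured 4.30, 4.05 and 3.35 FPKM in the controls and 5.96, 5.85 and 6.00 FPKM in the knockouts. All its knockout libraries were above all controls, as were those of *Lin54*, and its adjusted p was 0.126, 0.0737 with the replicate block and 0.0331 with a block for replicate 1 (0.0177 to 0.371 over all alternatives). *E2f4* and *Rbl2*, repressive partners in DREAM, had −0.22 and −0.13. *Cdkn1a*, which encodes the CDK inhibitor p21, measured 159, 162 and 154 FPKM in the controls and 223, 252 and 222 FPKM in the knockouts. All knockout libraries were above all controls, with a log2 fold change of 0.55 (SE 0.11, adjusted p = 0.0638), and with the replicate block it was called higher at 0.0371 (0.0104 to 0.234 over all alternatives). *Cdkn1a* was the only regulator called higher with that block, against 4.72% of all tested genes. The block for replicate 1 called 2 of the 21 regulators higher, against 9.17% of all tested genes. *Trp53*, which encodes p53, was the one regulator called lower with the block (4.76% of the list, against 5.72% of all tested genes). It measured 171, 149 and 144 FPKM in the controls and 102, 98.5 and 93.4 FPKM in the knockouts. Its groups were far apart in every pair, with a log2 fold change of −0.65 (SE 0.12, adjusted p = 0.0504, 0.0266 with the block, 0.00541 to 0.230 over all alternatives), and with chromosome medians removed as well the estimate was −0.53 and the blocked value 0.0519. The lowest estimate was that of *E2f7*, a repressive E2F, at −1.04 (SE 0.40, adjusted p = 0.214, 0.109 with the block, 0.0537 to 0.501 over all alternatives). It measured 9.40, 2.63 and 3.81 FPKM in the controls and 1.87, 2.23 and 1.24 FPKM in the knockouts, with no overlap, and without Flox 1 the estimate was −0.60. Like *Cdk1*, *E2f7* lies on chromosome 10, and with chromosome medians removed its estimate was −0.67. *Lin52*, *E2f7*, *Trp53* and the other MuvB subunits beside *Lin9* were chosen after their values were seen.

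Markers of the labelled cell type were present in part. The 8 smooth muscle markers, of which 5 were tested, summed to 922, 821 and 814 FPKM in Flox 1, 2 and 3 and to 263, 429 and 376 FPKM in KO 1, 2 and 3, while *Myh11*, *Myocd* and *Des* were at or below 0.5 FPKM in every library. Most of each sum was *Acta2*, which measured 761, 682 and 683 FPKM in the controls and 201, 268 and 262 FPKM in the knockouts. *Acta2* was called lower by limma (log2 fold change −1.55, adjusted p = 0.00803, 0.000241 to 0.0615 over all alternatives), but not without Flox 2 (0.0541), Flox 3 (0.0615) or KO 3 (0.0533). *Tagln*, *Cnn1*, *Smtn* and *Lmod1* overlapped between the groups, with *Tagln* and *Smtn* highest in KO 2, *Lmod1* in KO 3 and *Cnn1* in Flox 1 (21.0 FPKM). Each of them was lowest in KO 1, where *Tagln* measured 12.5 FPKM against 57.1 to 87.3 FPKM elsewhere. In limma the difference in pair 1 departed from that in pairs 2 and 3 for *Tagln* (adjusted p = 0.00920), *Cnn1* (0.00125) and *Lmod1* (0.00539), but not for *Smtn* (0.480). Endothelial markers summed to 1.71, 2.65 and 2.60 FPKM in the controls and 2.44, 5.64 and 3.04 FPKM in the knockouts. *Pecam1* was the most abundant of them in the controls and *Kdr* in the knockouts, and *Cdh5*, *Tek*, *Tie1*, *Vwf* and *Emcn* were at or below 0.5. Leukocyte markers summed to 42.8, 26.5 and 22.9 FPKM in the controls and 40.6, 17.1 and 21.7 FPKM in the knockouts, mostly *Cd14*, with *Ptprc*, *Adgre1*, *Itgam* and *Tyrobp* at or below 0.5. The 7 fibroblast markers summed to 301, 918 and 784 FPKM in the controls and 81.1, 571 and 516 FPKM in the knockouts, lowest in replicate 1 of each group. Their leading gene was *Dpt* in Flox 1, *Ly6a* in Flox 2, Flox 3 and KO 1, and *Dcn* in KO 2 and KO 3. *Dpt* was called lower in limma (log2 fold change −5.28, adjusted p = 0.00417, 1.08e-05 to 0.0407 over all alternatives), and *Cd34*, *Ly6a*, *Pdgfra* and *Pi16* were lower in the knockout in 3 of 3 pairs, whereas *Dcn* and *Lum* were higher in 3 of 3. With the replicate block *Dpt*, *Cd34* and *Ly6a* were called lower, at 0.0269 for *Cd34* (0.000230 to 0.210 over all alternatives) and 0.0404 for *Ly6a* (0.000336 to 0.823). With the block for replicate 1, *Pdgfra* (0.0283) and *Pi16* (0.0277) were also called lower, while *Dcn* (0.0418) and *Lum* (0.0467) were called higher. Adipocyte markers reached 119 FPKM in KO 1, mostly *Fabp4*, and 3.12 to 6.27 FPKM elsewhere. Epithelial markers summed to 0.99 to 13.5 FPKM, mostly *Cdh1*, and Schwann cell markers to 1.28 to 13.3 FPKM, with *S100b* the most abundant on average. None of these sums was highest in Flox 1 and lowest in KO 3 as the mitotic genes were, and the part of these cell types in the differences of the mitotic genes was not tested.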

How the data were processed

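The members were matched by exact symbol, and members and lists were chosen with earlier results of these data known. The authors deposited FPKM from RSEM, made after read filtering in SOAPnuke and alignment by HISAT and Bowtie2. Versions and genome build are not given in the sources used here. Log2 of FPKM plus a pseudocount of 1 was compared between genotypes by limma 3.58.1 in R 4.3.3 (lmFit, eBayes with trend and robust) for the 12565 genes whose mean reached 0.5 FPKM, and p-values were adjusted over all of these by the method of Benjamini and Hochberg, with calls under 0.05. Values in every library are given for *Smyd2* and, in each role group, for the most abundant member and those with the lowest and highest log2 fold change. In the other lists, called genes or, if none, the extremes or a few listed regulators are named. Replicate numbers were taken as pairs where same-numbered libraries correlated above 0.1 across genes. Flox 2 with KO 3 and Flox 3 with KO 2 also passed this level, so it does not settle how replicates 2 and 3 pair. Alternatives were a pseudocount of 0.1, no filter, blocks for replicate, each library left out, replicates 2 and 3 alone, TPM, quantile normalization, removal of chromosome medians (positions from GENCODE on GRCm38) and stricter cutoffs. Fits were tested on simulated data. Motifs and sums used Python 3.11.15 with pandas 2.3.3, numpy 2.4.6, scipy 1.17.1 and matplotlib 3.10.9.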

Additional observations from a re-analysis of the deposited data

How the results depend on the processing

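With the replicate block, calls went from 0 to 3 mitotic members, 0 to 3 other G2/M genes and 1 to 10 S-phase genes, all lower. These are 8.33%, 4.35% and 19.2% of the tested genes of each list. Of all tested genes the block called 719 lower (5.72%) and 593 higher (4.72%), and *Smyd2* was called at −1.48 (adjusted p = 0.0189). The block changed no other call of a mitotic member than *Incenp*, *Kif11* and *Cdk1*. A block for replicate 1 called 3, 7 and 20 lower (8.33%, 10.1% and 38.5%) and 1 other G2/M gene higher. It called 1398 of all tested genes lower (11.1%) and 1152 higher (9.17%), and *Smyd2* at −1.48. Replicates 2 and 3 alone called 3 of 36 (*Incenp*, *Kif11* and *Bub1b*, without *Cdk1*), 10 of 69 and 16 of 52 lower and 1 other G2/M gene higher. That fit called 2156 of all tested genes lower (17.2%) and 1494 higher, and *Smyd2* at −1.35. Whether replicates 2 and 3 are separate cultures is not given, so its p-values may not cover variation between cultures. S-phase calls were 0 with no filter, with TPM and with chromosome medians removed without the block. TPM gave 99 lower, 247 higher and a median of all genes of 0.10. Chromosome medians removed, an alternative chosen after the data were seen, gave 83 lower and 116 higher, or with the block 288 lower, 423 higher, 1 S-phase gene lower and *Smyd2* called at −1.60 (adjusted p = 0.0223, 0.00126 to 0.305 over all alternatives). A fold change above 2 with an adjusted p under 0.01 gave 26 lower and 27 higher.

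Leaving out each library gave 16 to 313 genes lower, 16 to 373 higher and 0 to 2 S-phase genes lower. Of the mitotic members, 9 changed sign without KO 3, 3 of these also without Flox 1, and *Pttg1* without KO 1. Their ranges were −0.34 to 0.14 for *Cdc25c*, −0.53 to 0.037 for *Bub1*, −0.87 to 0.016 for *Nuf2*, −0.36 to 0.081 for *Cenpa*, −0.51 to 0.064 for *Cenpe*, −0.34 to 0.036 for *Cenpf*, −0.28 to 0.057 for *Pttg1*, −0.45 to 0.13 for *Kif20a*, −0.28 to 0.057 for *Nusap1* and −0.65 to 0.10 for *Hmmr*. The other 26 members kept their sign under all alternatives, and no library's omission led to a call of a member. The cause of these changes was not tested. Depth, estimated at 17050000 to 19950000 fragments, limits *Cdc25c*, the member with the fewest fragments, most.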
